A study of Arabidopsis thaliana with 24 samples.

Results

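A pair of dichlorinated aromatic acids that switch on plant defence was compared directly with each other in wild-type Arabidopsis 48 h after spraying. DCA, an anthranilic acid with an amino group on a benzene ring, was set against INA, an isonicotinic acid built on a pyridine ring. The comparison used 6 of the 24 arrays of the series, chosen by their labels alone: 3 of Col-0 sprayed with 100 µM DCA and 3 of Col-0 sprayed with 100 µM INA. Its differences use no mock array. The mock arrays, and those of the mutant npr1-3, entered this contrast only through the filter on low signal and the estimate of spread. All 8 groups of 3 arrays share that estimate, among them npr1-3 sprayed with 100 µM DCA or mock and harvested at 48 h. The plants were soil-grown, 2 weeks old and kept at 21 °C with a day of 14 h and a night of 10 h. All above-ground tissue was harvested whole, and every spray, the mock spray included, was made up with at most 0.002% DMSO. Each group consisted of 3 independent biological replicates per the labels, measured on Affymetrix ATH1 arrays. Col-0 DCA and INA plants harvested at 6 d, which share no array with the 48 h plants, serve as a second reading of the same contrast, and mock levels are given for orientation.

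Salicylic acid (SA) is the hormone that plants make when biotrophic pathogens attack. It acts on the coactivator NPR1, which with TGA transcription factors turns on defence genes in the attacked leaf and in distant leaves. INA has long been used as a functional analogue of SA, and DCA was found in a screen for small synthetic elicitors. Chloroplasts carry a small genome of their own. Its genes are read by a plastid-encoded and a nucleus-encoded RNA polymerase, and they specify parts of both photosystems, of the electron transport and ATP synthase complexes, of the plastid ribosome and of the polymerase itself.

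At 48 h the values differed in both directions. RING1, AT5G55450, CHI and UGT87A2 had signals that were 2.44-fold to 3.14-fold lower after DCA than after INA, with no overlap between the groups. These genes were picked with their 48 h values known, so this only describes them. Of all tested probe sets, 12% were lower with DCA without overlap. Genes encoded in the chloroplast ran the other way, with a median log2 difference of 0.84 in favour of DCA over 66 tested genes. None of these reached the threshold at 48 h. A probe set is called here if its p in limma, adjusted by Benjamini-Hochberg over all 13648 tested probe sets, is under 0.05, and 0 (0%) were. The lowest adjusted p in limma was 0.242, shared by 22 probe sets. Without adjustment, p was under 0.05 for 1623 probe sets (11.9%), of which 750 were higher (5.5%) and 873 lower (6.4%) with DCA. That count was 415 (3.04%) without INA replicate 1 and 2978 (21.8%) without INA replicate 2, and 363 of the 1623 kept p under 0.05 without INA replicate 1. Counts at p under 0.05 below share this dependence, and without INA replicate 1 the shares over all tested were 1.5% higher and 1.54% lower. The median 95% interval reached 0.59 to either side on the log2 scale, a factor of 1.5. For 8496 probe sets (62.3%) the whole interval lay within a 2-fold difference either way, and for 9 it lay wholly beyond 2-fold.

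The 3 INA arrays were less alike than the 3 DCA arrays. INA replicates 1 and 2 differed by more than 2-fold at 20.4% of tested probe sets, replicates 1 and 3 at 9.8% and replicates 2 and 3 at 4.05%, whereas pairs of DCA arrays differed that much at 0.901% to 2.11%. Mock replicates 1 and 2, from plants that received neither compound, also differed by more than 2-fold at 19% of probe sets. Many results below are therefore given with and without INA replicate 1, and 48 h values without such a second figure include that array. The labelled tissue was checked against marker genes. The Rubisco activase gene RCA had signals of 17430 to 27760 on the 6 arrays, while the root hair genes EXPA7 and EXPA18 and the root cellulase GH9C1 reached at most 77.7 and the pollen and flower genes AT3G28840 and AT5G07430 at most 50.6. The root gene PYK10 ran from 4395 to 5288 on the same arrays.

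Genes with lower signals after DCA are described first. AT5G55450, which encodes a protein of the lipid-transfer family, had signals of 2060, 1940 and 1693 in DCA replicates 1 to 3 and of 4905, 6260 and 6300 in INA replicates 1 to 3. Mock plants stood at 1091, 456 and 567. Every DCA array thus lay above every mock array and below every INA array. The log2 difference was -1.61 ± 0.38 (SE, n = 3 per group; limma adjusted p = 0.242), and -1.73 without INA replicate 1. In bulk tissue, fewer cells of a kind and less RNA in each cell cannot be told apart, here and for the genes that follow. RING1, a RING-type ubiquitin ligase of the plasma membrane linked to cell death in defence, had signals of 1247, 1122 and 1261 with DCA against 4151, 3109 and 4218 with INA. Its mock arrays gave 868, 649 and 596, so DCA plants were closer to mock than to INA plants. The difference was -1.65 ± 0.40 (limma adjusted p = 0.256) and -1.58 without INA replicate 1.

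CHI, annotated as a chitinase, an enzyme class that attacks fungal cell walls, had closely spaced DCA arrays. Its signals were 369, 359.7 and 354 with DCA and 994, 892 and 1112 with INA. The mock arrays were spread over 401, 65.0 and 104, so that mock replicate 1 reached the DCA level. The log2 difference of -1.46 ± 0.67 carried an adjusted p of 0.407 in limma over all 24 arrays. In limma fitted to the 6 arrays alone, with 4 residual degrees of freedom, the adjusted p was 0.0298. In that fit 11 probe sets (0.0806%) were called, all lower with DCA, and RING1, AT5G55450 and CHI were the 3 with a gene in the annotation.

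UGT87A2, a glycosyltransferase known for a role in flowering time, had 286, 406 and 461 with DCA against 1414, 600.4 and 916 with INA. The groups did not overlap, and INA replicate 1 was the highest array. The difference was -1.29 ± 0.38 (limma adjusted p = 0.367) and -0.98 without that array. CYP71B23, a cytochrome P450 mono-oxygenase, gave 298, 310 and 252 against 1121, 435 and 689. Again all 3 INA arrays were above all 3 DCA arrays, with a difference of -1.28 ± 0.40 (limma adjusted p = 0.368), or -0.94 without INA replicate 1. Its neighbour in the family, CYP71B24, was -0.76 ± 0.36 apart (limma adjusted p = 0.419). The leucine-rich repeat kinase gene AT1G35710 had 412, 391 and 323 with DCA and 996, 796 and 711 with INA, and the ankyrin repeat gene AT1G10340 had 797, 794 and 865 and 2434, 1193 and 1643. Both showed the order mock, DCA, INA without overlap.

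**Figure D1:**
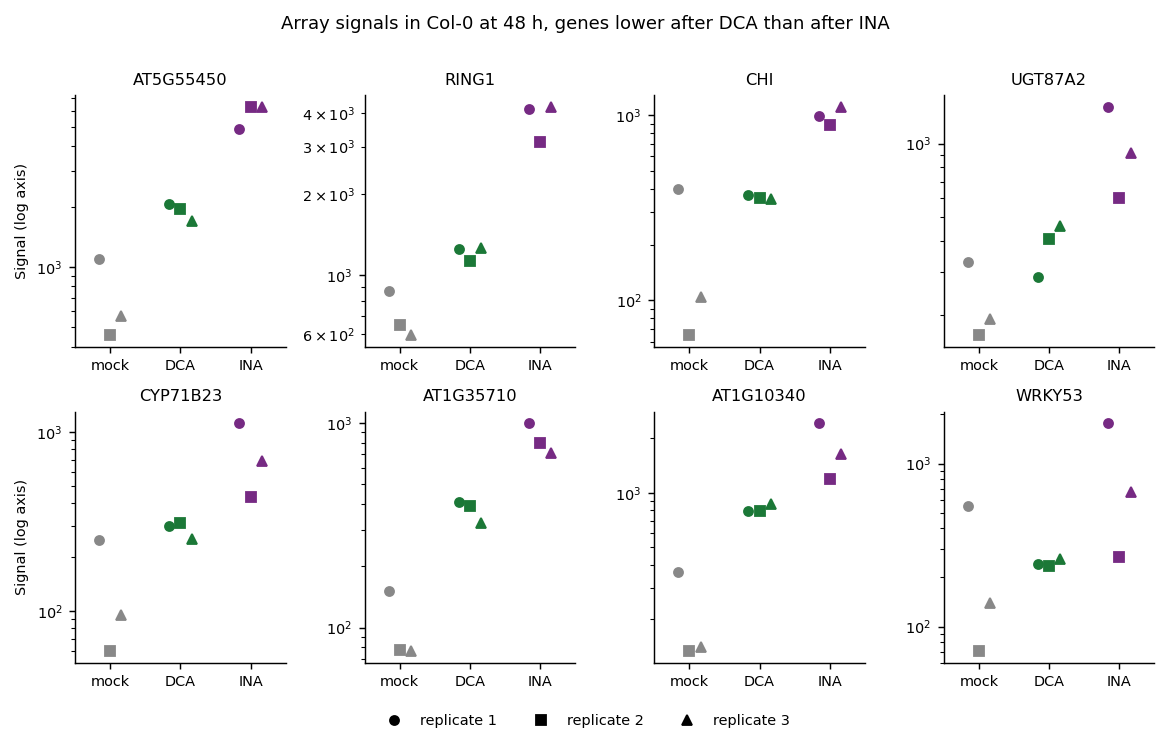
Signals of 8 genes in Col-0 at 48 h on a log axis, with 1 symbol per array, the replicate number shown by its shape and the treatment by its place and colour. In each panel the 3 DCA arrays lie below the 3 INA arrays, and the genes were chosen with these values known. For AT5G55450, RING1, CYP71B23, AT1G35710 and AT1G10340 they also lie above all 3 mock arrays, whereas for CHI, UGT87A2 and WRKY53 mock replicate 1 lies within or above the range of the DCA arrays.

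WRKY factors bind the W-box promoter element, and several regulate SA responses. The median difference of 5 tested members was -0.49 against -0.024 over all tested probe sets. At an unadjusted p under 0.05, 2 of them differed, both lower with DCA, where 6.4% of all tested were lower. Neither was under 0.05 without INA replicate 1, where WRKY22 was, higher with DCA, and the median was -0.53. WRKY53, a factor of leaf senescence and basal defence, had 243, 236 and 258 with DCA and 1771, 266 and 664 with INA. INA replicate 2 was barely above the DCA arrays and replicate 1 far above them, and the mock arrays were as spread, at 552, 70.5 and 139. Its difference of -1.47 ± 0.61 (limma adjusted p = 0.391) was -0.78 without INA replicate 1. WRKY47 had a difference of -1.0 ± 0.32 (limma adjusted p = 0.368), or -0.66 without that array.

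The plants of the 6 d harvest share no array with the 48 h contrast in their differences, but both contrasts come from 1 fit and share its estimate of spread, so each gene has the same SE at both times. At 6 d, 29 probe sets (0.212%) were called in limma, 28 lower (0.205%) and 1 higher (0.00733%) with DCA than with INA. Single arrays moved this count: it was 47, 9 and 6 without DCA replicate 1, 2 or 3 and 110, 6 and 4 without INA replicate 1, 2 or 3. Without adjustment, p was under 0.05 for 5.85% of probe sets, and 4.22% were lower with DCA at that level. Replicate 1 stood apart at 6 d: it differed by more than 2-fold from replicates 2 and 3 at 15.6% and 13.9% of probe sets for DCA and at 16.4% and 19.3% for INA, against 1.76% and 2.42% between replicates 2 and 3. The summed signal of the 4 root markers was 5484, 3018 and 2582 in DCA replicates 1 to 3. It was 9060, 2491 and 2902 in INA replicates 1 to 3, and its part in the 6 d results was not tested. The sum cannot show whether several markers moved together. On the DCA and INA arrays of 48 h, PYK10 alone gave 4395 to 5288, and EXPA7, EXPA18 and GH9C1 at most 77.7. Same-numbered DCA and INA arrays deviated together, and with the replicate number as a block the count was 100 (0.733%), 89 lower and 11 higher, and it held all 29. Of the 28 lower ones, 26 were also lower at 48 h, 21 of them at an unadjusted p under 0.05 against 6.4% of all tested. Genes with a small shared SE are favoured in both readings. In the 6 arrays alone, whose spread uses no 6 d array, 23 of the 28 were lower at that level against 7.71% of all tested. In the fit to all arrays but INA replicate 1, whose spread does use the 6 d arrays, 19 of the 28 were, against 1.54%. Their median difference at 48 h was -1.12, and -1.01 without INA replicate 1, beside -0.024 over all tested probe sets. Against the mock arrays, which both values share, the median at 48 h was 1.5 for DCA and 2.85 for INA. At 6 d it was 0.53 for DCA and 2.8 for INA, but the 28 were chosen for that gap on these same 6 d arrays. The 6 d medians therefore only describe the choice, and their change from 48 h is not a result. In 25 of the 28 all 3 DCA arrays at 48 h were below all 3 INA arrays, against 12% of all tested.

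INA against mock at 6 d gives a wider set, with the same shared spread. It is not a separate reading, since both choices use the INA arrays of 6 d. Against mock at 6 d, 212 probe sets were raised by INA (1.55%) and 38 lowered (0.278%). Of the 212, 27 were among the 28 above, and 1 of the 38 was also called between DCA and INA at 6 d. Of the 212, 85 were lower and 0 higher with DCA than with INA at 48 h at an unadjusted p under 0.05, where 6.4% of all tested were lower, with a median of -0.57. These were 47 and -0.49 without INA replicate 1. Of the 38, 19 were higher and 0 lower at that level, where 5.5% of all tested were higher, with a median of 0.41. For these the values without that array were 7 and 0.28.

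Only 8 of the 29 probe sets had a single gene in the supplied annotation. AT5G55450 at 6 d had 1742, 582 and 689 with DCA and 3850, 7325 and 7030 with INA, a difference of -2.72 ± 0.38 (limma adjusted p = 0.00202). RING1 was lower with DCA there as well, with 995, 1211 and 1117 against 2305, 6451 and 6284 and a difference of -2.04 ± 0.40 (limma adjusted p = 0.0305). Both had the direction seen at 48 h. AT5G55450 stayed past the threshold when any 1 of the 6 arrays of 6 d was left out, whereas RING1 did so in 1 of the 6 cases. UGT87A2 (-1.81, limma adjusted p = 0.0494), AT1G35710 (-1.86, 0.0242) and AT1G10340 (-1.74, 0.0498) were also lower with DCA at 6 d, as at 48 h. AT4G39830, of the cupredoxin family that includes ascorbate oxidases, had a difference of -2.31 at 6 d (limma adjusted p = 0.0264) and -0.75 at 48 h. AT1G13750, a purple acid phosphatase, was at -1.63 (limma adjusted p = 0.0120) and -0.59, and AT1G74440 at -0.77 (limma adjusted p = 0.0498) and -0.34. Leaving out 1 array kept the call in 1 of 6 cases for UGT87A2 and AT1G35710, in 2 for AT1G10340 and AT4G39830, in 3 for AT1G13750 and in 0 for AT1G74440. CHI and CYP71B23 missed the threshold at 6 d, with differences of -2.36 (limma adjusted p = 0.224) and -1.53 (limma adjusted p = 0.161). With the replicate block CHI gave 0.118 and CYP71B23 passed at 0.0459.

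Among the probe sets with no entry in the annotation, 266070_at showed the largest difference of the 29 at 48 h. Its signals were 493, 535 and 627 with DCA, 3969, 2264 and 3052 with INA and 410.2, 62.5 and 98.6 in mock. The log2 difference was -2.46 ± 0.58 (limma adjusted p = 0.242; -2.26 without INA replicate 1). Probe set 254265_s_at followed with 267, 220.5 and 167 against 1044, 1155 and 1159 and a difference of -2.38 ± 0.52. At 6 d these were -3.48 and -3.89. The single probe set that was higher with DCA at 6 d, 249732_at, was also higher at 48 h, by 0.40 against 0.98.

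**Figure D2:**
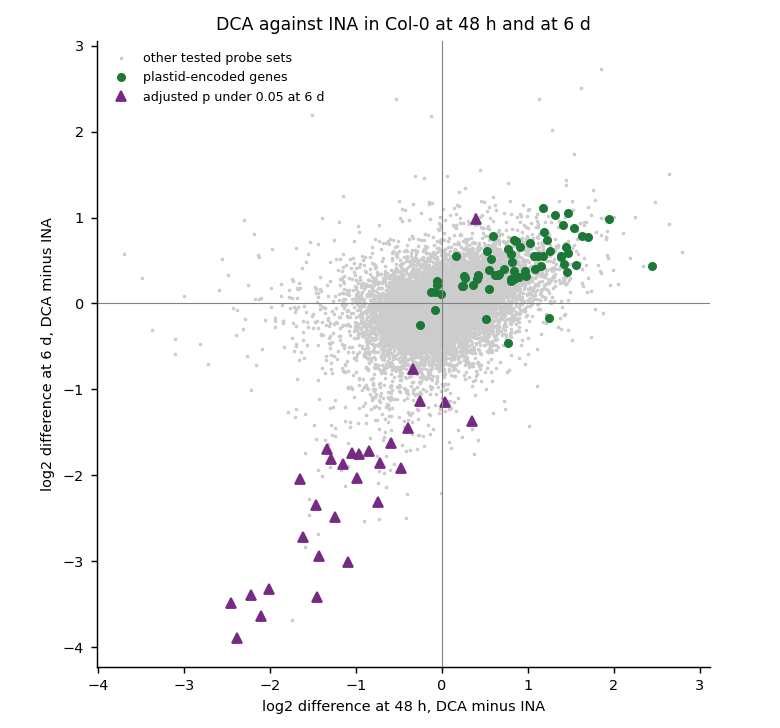
Log2 difference between DCA and INA at 48 h (horizontal) and at 6 d (vertical) for the 13648 tested probe sets. No array is shared between the axes. Triangles mark the 29 probe sets called at 6 d, of which 27 have the same sign at 48 h, and filled circles mark the 66 plastid-encoded genes, which lie mostly to the upper right of the origin.

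Over all tested probe sets, 64.4% had the same sign at both times. Of the 1623 at p under 0.05 before adjustment at 48 h, 83.9% did. The correlation of the differences across the 13648 probe sets was r = 0.413, or 0.452 without INA replicate 1, which describes these arrays only, since probe sets are not independent replicates. The difference between the times was itself tested: 0 probe sets (0%) were called and 323 (2.37%) passed without adjustment. The lowest adjusted p in limma was 0.9985. The 48 h minus the 6 d difference was 0.39 for RING1 and 1.10 for AT5G55450 (limma adjusted p = 0.999 for both).

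Chloroplast transcripts were mostly higher with DCA. All but 3 of the 69 plastid-encoded genes in the annotation passed the filter on low signal. Of the 66 tested, 59 were higher with DCA, where 47.3% of all tested probe sets were, 38 of them at an unadjusted p under 0.05 against 5.5% of all tested, and 0 were lower at that level. With INA replicate 1 left out, 37 were higher and 0 lower. In 40 of the 66 all 3 DCA arrays were above all 3 INA arrays, against 11.2% of all tested. None was called at 48 h after adjustment. The counts describe these arrays only, since genes measured on the same arrays are not independent replicates. The median difference of the 66 was 0.84, and 0.9 without INA replicate 1. Of the 66, 2 differed by more than 2-fold between mock replicates 1 and 2. That pair does not describe the spread between other arrays. The mean log2 signal of the plastid genes was 11.33 in DCA replicate 3, against 11.91 and 11.97 in DCA replicates 1 and 2.

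Genes for making plastid RNA and protein were all on the DCA side. All 18 tested members were higher with DCA, with a median of 1.15, 14 of them at an unadjusted p under 0.05 against 5.5% of all tested. rpoC2, a subunit of the plastid-encoded RNA polymerase, had 609.8, 469.9 and 266 with DCA and 91.7, 131 and 112 with INA. The lowest DCA array was above the highest INA array, and the difference was 1.94 ± 0.45 (limma adjusted p = 0.242; 1.81 without INA replicate 1). rps19, of the small ribosomal subunit, had 3314, 3191 and 2363 against 996, 1383 and 1323. Its difference was 1.26 ± 0.26 (limma adjusted p = 0.242; 1.11 without INA replicate 1). rps19 was among the 22 probe sets at the lowest adjusted p, as was rps16, with 1192, 1231 and 754 against 256, 472 and 484. The difference for rps16 was 1.41 ± 0.32 (1.11 without INA replicate 1). rps3 gave 1.07 ± 0.26 (limma adjusted p = 0.256; 0.76 without that array). The 7 tested rps genes had a median of 1.26 and the 7 tested rpl genes one of 1.12, and the 3 tested rpo genes ran from 0.57 to 1.94.

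The genes of photosynthesis were more varied. Of 46 tested, 39 were higher with DCA, with a median of 0.81. At an unadjusted p under 0.05, 22 were higher and 0 lower, beside 5.5% and 6.4% of all tested. rbcL, the large subunit of Rubisco, had 1804, 1921 and 1189 with DCA and 639, 535 and 598 with INA, beside 1054, 946 and 1255 in mock. The mock arrays thus lay between both compounds, apart from mock replicate 3, which exceeded the lowest DCA array. Its difference was 1.45 ± 0.35 (limma adjusted p = 0.256; 1.5 without INA replicate 1). ndhH, of the chloroplast NADH dehydrogenase-like complex, showed the largest difference of all plastid genes, with 584, 436 and 281 against 49.1, 163 and 55.5, or 2.44 ± 0.71 (limma adjusted p = 0.367). ycf3, an assembly factor of photosystem I, gave 1.53 ± 0.43, and ndhJ gave 1.18 ± 0.34 (limma adjusted p = 0.367 for both). The medians were 0.99 for 6 ATP synthase genes, 0.89 for 9 ndh genes, 0.81 for 5 genes of photosystem I, 0.55 for 15 of photosystem II and 0.29 for 6 of the cytochrome b6f complex and its partners, where petD had the lowest value of -0.26. Outside photosynthesis and gene expression, accD, a subunit of acetyl-CoA carboxylase in fatty acid synthesis, was at 1.70 ± 0.49, and clpP, a protease subunit, at 1.39 ± 0.49 (limma adjusted p = 0.367 and 0.372).

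**Figure D3:**
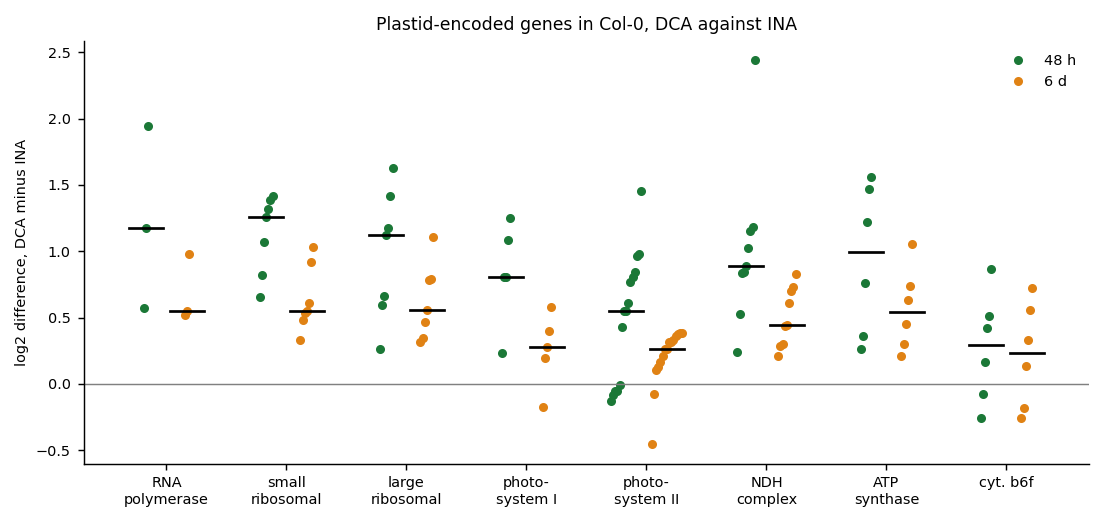
Log2 difference between DCA and INA for single plastid-encoded genes, grouped by function, at 48 h and at 6 d. Each point is 1 gene and each bar a group median. Medians at 48 h run from 0.29 for the cytochrome b6f group to 1.26 for the small ribosomal subunit, and each group's median at 6 d is above 0 and below that at 48 h.

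As a level per array, the mean log2 signal of the tested plastid genes was 11.91, 11.97 and 11.33 in DCA replicates 1 to 3 and 10.96, 10.8 and 10.89 in INA replicates 1 to 3. Mock arrays gave 11.48, 11.35 and 11.53. All 3 INA arrays were below all 3 mock arrays, and DCA replicates 1 and 2 were above them while replicate 3 was not. Plastid probe sets took 3.05%, 3.24% and 2.56% of the summed signal with DCA, 2.33%, 1.91% and 2.28% with INA and 2.58% to 2.91% in mock. Against the same mock arrays the median over the 66 genes was 0.2 with DCA and -0.54 with INA. These genes stand on a separate genome, so other transcript classes of the leaf are given for comparison. The 10 tested mitochondrion-encoded genes had a median of 0.067 and none had an unadjusted p under 0.05. The 5 tested nuclear genes of photosynthesis had a median of 0.15, again with none under 0.05, and RCA differed by 0.051 ± 0.19.

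At 6 d the plastid genes leaned the same way. Of the 66, 61 were higher with DCA, where 46% of all tested were, and 10 had an unadjusted p under 0.05 against 1.63% of all tested. The median was 0.42, and none was called. Without DCA replicate 2 the median was 0.21, 51 were higher, and at p under 0.05 2 were higher and 1 lower. The mean log2 signal of the plastid genes was 11.24, 11.88 and 10.85 in DCA replicates 1 to 3 and 10.67, 10.95 and 11.01 in INA replicates 1 to 3, so in the replicate 3 pair INA was higher. Mock arrays at 6 d gave 11.59, 11.9 and 11.14. Against these mock arrays the median over the 66 genes was -0.22 with DCA and -0.68 with INA. Between DCA and INA, rpoC2 was at 0.98 (limma adjusted p = 0.806), rps16 at 0.92 (0.490) and rbcL at 0.66 (0.929). For rbcL the 6 d groups overlapped, with 763, 1680 and 594 against 388, 568 and 869.6: DCA replicate 2 was far above the other arrays.

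AT2G41090, GRX480 and SAG101 were raised by both compounds against mock, and their direct differences had intervals that included 0. AT2G41090, a calmodulin-like calcium-binding protein, had 14520, 16580 and 15870 with DCA and 8013, 14950 and 14930 with INA, beside 3804, 3890 and 2713 in mock. INA replicate 1 was the lowest of the treated arrays and the remaining 5 lay between 14520 and 16580. The difference was 0.36, with a 95% interval of -0.25 to 0.98, which does not reach 2-fold. At 6 d the difference was -0.69 (-1.31 to -0.079). GRX480, a glutaredoxin that binds TGA factors, had 2058, 2296 and 2089 against 886, 3564 and 2680. INA replicate 1 was below and the other INA arrays were above all DCA arrays. The interval of -1.31 to 1.46 around 0.074 reached beyond 2-fold either way, and without INA replicate 1 the difference was -0.53. SAG101, a partner of EDS1 in immune signalling, differed by -0.10 (-0.62 to 0.41). AT2G04400, which encodes indole-3-glycerol phosphate synthase of tryptophan synthesis and passed the threshold against mock with DCA (limma adjusted p = 0.0396) but not with INA (0.0904), differed between them by 0.15 (-0.38 to 0.68). AT5G52810, known for a step of pipecolic acid synthesis in systemic acquired resistance, passed it with INA (limma adjusted p = 0.00774) but not with DCA (0.108). Its direct difference was -0.68 (-1.55 to 0.20), with 415, 351 and 303 against 455, 695 and 570.3. Its DCA arrays were all below its INA arrays.

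Against mock, 270 probe sets (1.98%) were called as raised by DCA and 324 (2.37%) as raised by INA at 48 h, and 183 by both. They were chosen on these same arrays, so what follows describes them only. For 105 the direct interval lay within 2-fold, 25 had an unadjusted p under 0.05, and the median difference was -0.17. In npr1-3, a mutant of NPR1, 43 probe sets (0.315%) were raised by DCA at 48 h. Of these, 14 were higher with DCA than INA in Col-0 at 48 h, and the median was -0.22. At an unadjusted p under 0.05, 7 of the 43 were lower and 1 was higher with DCA, beside 6.4% and 5.5% of all tested. Leaving out INA replicate 1 gave 2 lower and 1 higher.

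**Figure D4:**
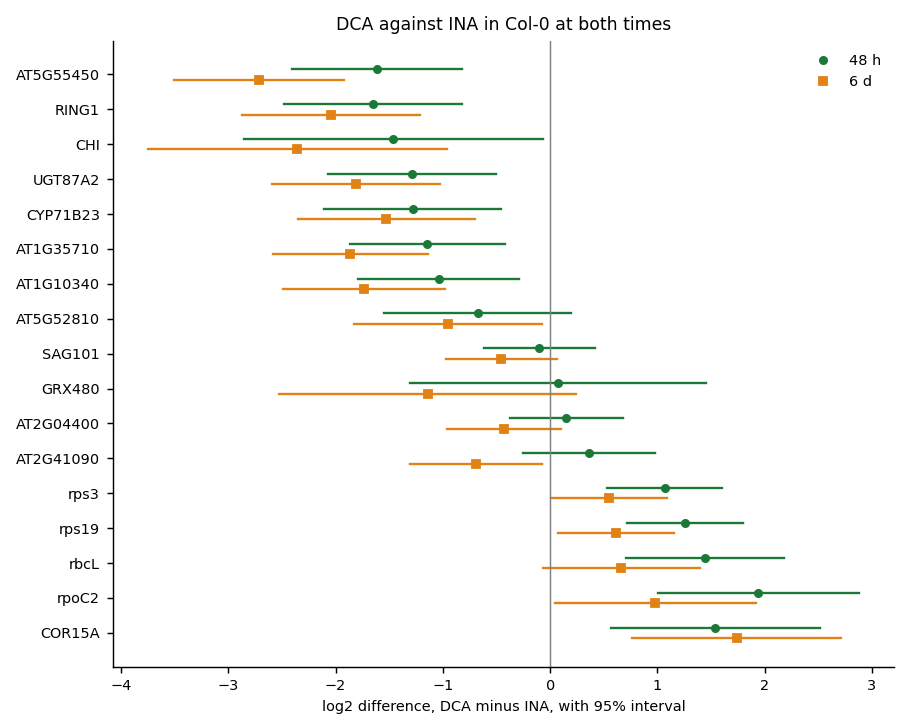
Log2 difference between DCA and INA with its 95% interval for 17 genes at 48 h (circles) and 6 d (squares). The 48 h values include INA replicate 1. The intervals of the top 7 genes lie below 0 at both times, those of AT5G52810, SAG101, GRX480, AT2G04400 and AT2G41090 cross 0 at 48 h, and those of rps19, rps3, rpoC2 and COR15A lie above 0 at both times, while that of rbcL reaches below 0 at 6 d.

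Immune receptor loci of the nucleotide-binding and TIR families lay on both sides. Of 35 tested, 21 were higher with DCA at 48 h, where 47.3% of all tested were, and the median was 0.18. At an unadjusted p under 0.05, 2 were higher and 1 lower, beside 5.5% and 6.4% of all tested. None was under 0.05 without INA replicate 1. Against the mock arrays, which both share, their median was 0.66 with DCA and 0.66 with INA. AT1G69550, a TIR-type receptor, had 326, 277 and 187 with DCA and 45.0, 165 and 176 with INA, with INA replicate 1 lowest, and a difference of 1.23 ± 0.44 (limma adjusted p = 0.374) that was 0.59 without that array. AT1G66090 followed at 0.93 ± 0.35 (0.53 without it). CSA1, a receptor named for its constitutive shade-avoidance mutant, was on the other side at -0.49 ± 0.22. At 6 d, 10 of the 35 loci were higher with DCA, where 46% of all tested were, with a median of -0.29. At an unadjusted p under 0.05, 0 were higher and 4 lower at 6 d, beside 1.63% and 4.22% of all tested.

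Detoxification families were mixed. Of 11 tested cytochrome P450s of the list, 2 had an unadjusted p under 0.05, CYP71B23 and CYP71B24. Both were lower with DCA, where 6.4% of all tested were lower at that level. Without INA replicate 1 it was 1, against 1.54% of all tested. Of 23 UDP-glycosyltransferases, 3 were higher and 2 lower at that level, beside 5.5% and 6.4% of all tested, with a median of -0.22. Without INA replicate 1 it was 1 each way with a median of -0.15, and the median at 6 d was -0.00065. UGT85A5, one of the 3, had 235, 210.4 and 235 against 149, 136 and 134, with no overlap and a difference of 0.70 ± 0.22 (limma adjusted p = 0.368; 0.74 without INA replicate 1). UGT76E11 was at 0.81 ± 0.34 and UGT85A2 at 0.78 ± 0.34. None of 6 glutathione transferases had an unadjusted p under 0.05. GSTU20 had 4977, 5160 and 5199 against 723, 5150 and 3623. Its difference of 1.10 was 0.24 without INA replicate 1.

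Of 3 tested jasmonate and ethylene defence genes, none had an unadjusted p under 0.05 at 48 h. PDF1.2, a plant defensin, had 1335, 1196 and 1212 with DCA and 219.8, 2055 and 1259 with INA. Its interval ran from -1.73 to 2.91, and its difference of 0.59 was -0.37 without INA replicate 1. THI2.2, a thionin, had 1877, 2337 and 2402 against 1017, 1973 and 1540, all 6 below the mock arrays at 3981, 5698 and 4824. Its difference was 0.59 ± 0.34 (limma adjusted p = 0.475), or 0.33 without INA replicate 1. At 6 d it was 1.24 ± 0.34 (limma adjusted p = 0.187). BCAT4, which starts the chain elongation of methionine-derived glucosinolates, was at 0.80 ± 0.39, and at 0.33 without INA replicate 1. The ER folding genes CRT1b and PDIL5-1 had differences of -0.0052 (-0.68 to 0.67) and -0.01 (-0.56 to 0.54).

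Many of the large differences rested on INA replicate 1. Of 633 probe sets that differed by more than 2-fold between the compounds, 156 also did so without that array. Among the 633, 83.9% differed by more than 2-fold between mock replicates 1 and 2 as well, against 19% of all tested. Among the 156 that held, 66.7% did, among the 28 probe sets lower with DCA at 6 d 42.9%, and among the plastid genes 3.03%. The 1371 probe sets more than 2-fold lower in mock replicate 1 than in mock replicate 2 had a median of 0.64 between DCA and INA, and the 1222 more than 2-fold higher there a median of -0.63. Without INA replicate 1 these were 0.27 and -0.33. What sets these replicates apart is not given in the labels, and its part in the differences was not tested.

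GTR1, a glucosinolate transporter, shows the pattern. Its signals were 4983, 5030 and 4256 with DCA, 157, 3556 and 2000 with INA and 123, 4315 and 2303 in mock. Replicate 1 was far below replicates 2 and 3 in both INA and mock but not in DCA, and the difference of 2.19 became 0.83 without it. Of 16 tested expansin and xyloglucan endotransglucosylase genes, which loosen or remodel cell walls, 4 were higher and 0 lower at an unadjusted p under 0.05, beside 5.5% and 6.4% of all tested, with a median of 0.29. Without INA replicate 1, 2 were higher and the median was 0.19. XTH18, a xyloglucan endotransglucosylase, had 2610, 2185 and 2128 with DCA, 189, 1724 and 804 with INA and 112, 1744 and 868 in mock, and went from 1.85 to 0.97. The MATE transporter gene AT1G61890 went from 1.75 to 0.88, the MADS-box gene AGL87 from 1.99 to 0.80, and CRR21, a pentatricopeptide protein of chloroplast RNA editing, from 1.85 to 0.90. EXLA2, an expansin-like gene, moved less, with 1257, 1153 and 1182 against 519, 744 and 552 and 1.0 against 0.90, and so did XTH16, at 1.37 and 0.89.

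Cold-response genes were all on the DCA side, 4 of 4 tested, where 47.3% of all tested were, with a median of 1.07. At an unadjusted p under 0.05, 2 of them were higher, against 5.5% of all tested. Without INA replicate 1 it was 1 gene, against 1.5% of all tested, and the median was 0.59. COR15A encodes a stromal protein that protects membranes during freezing. It had 4803, 4734 and 4153 with DCA and 856, 2554 and 1751 with INA, and mock arrays ran over 2224, 9344 and 6184. The groups did not overlap, and the difference of 1.54 ± 0.47 (limma adjusted p = 0.368) was 1.11 without INA replicate 1. At 6 d it was 1.74 ± 0.47 (limma adjusted p = 0.174, and 0.0379 with the replicate block). Its neighbour COR15B leaned more on INA replicate 1, with 4843, 4811 and 3765 against 379, 3408 and 2201 and 1.65 against 0.70 without it.

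Of 5 tested auxin response genes, 2 were lower with DCA at an unadjusted p under 0.05, against 6.4% of all tested, with a median of -1.60. Without INA replicate 1 none was under 0.05, and the median was -0.81. WES1, an enzyme that joins amino acids to auxin and SA, had 219, 260.3 and 393 with DCA and 10960, 322 and 4087 with INA. Mock stood at 3965, 219 and 1459, with the same order of replicates as INA. The difference of -3.11 ± 1.0 (limma adjusted p = 0.368) was -2.02 without INA replicate 1. GH3.3, of the same enzyme family, had 206, 232 and 479 against 5995, 291 and 3800, and IAA29, a repressor of auxin response, had 76.9, 109.5 and 332 against 2197, 119 and 1515. For both, INA replicate 2 lay within the range of the DCA arrays. IAGLU, an auxin glucosyltransferase, went from -1.84 to -1.04. At 6 d the differences were -0.41 for WES1, -0.71 for GH3.3 and -0.074 for IAA29. The 5 tested genes of amino acid breakdown in darkness were all lower with DCA at 48 h, where 47.3% of all tested were higher. None had an unadjusted p under 0.05. Their median of -1.02 became -0.29 without INA replicate 1, where 1 of the 5 was higher. At 6 d, 4 of the 5 were higher with DCA, where 46% of all tested were, with a median of 0.072. At 48 h the signals of single genes were spread. MCCA, which degrades leucine, had 649, 490 and 1073 against 6428, 472 and 2136 and 5229, 796 and 3317 in mock.

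**Figure D5:**
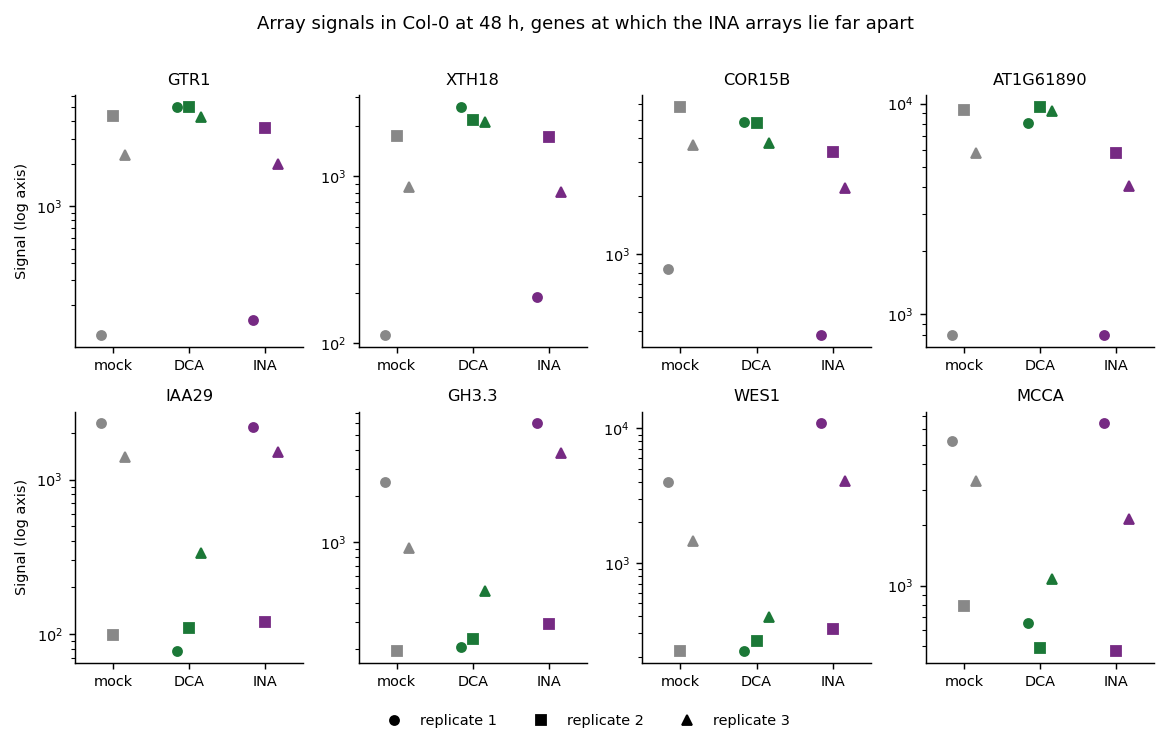
Signals of 8 genes in Col-0 at 48 h on a log axis, drawn as in the plot of defence genes. In each panel replicate 1 of both mock and INA lies apart from replicate 2 of the same group, in the same direction, while the 3 DCA arrays stay closer together.

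AT5G37790, a protein kinase gene, had 122, 78.0 and 112 with DCA and 8.22, 7.25 and 52.8 with INA, close to the filter on low signal of 74.2. Its difference of 2.80 ± 0.61 (limma adjusted p = 0.242) was called without INA replicate 3 and with the array weights given below. ATMYC1, a bHLH transcription factor, had 77.5, 107 and 108 against 33.4, 59.5 and 32 and a difference of 1.27 ± 0.29 (limma adjusted p = 0.242; 1.14 without INA replicate 1). AT5G07620, another kinase gene, was at 1.48 ± 0.39 (1.31 without it). On the INA side AT5G49170 had 80.8, 41.4 and 13.3 against 300.1, 108 and 128, and each mock array, at 419.9, 128 and 162, was above the INA array of the same number. AT5G66590, of the CAP family, had 574, 561 and 738 against 4647, 838 and 2459, with a difference of -1.78 ± 0.50 (limma adjusted p = 0.367; -1.21 without INA replicate 1). AT1G80130 was at -1.67 and AT1G54120 at -1.77, or -1.29 and -1.28 without that array.

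DCA and INA were the only pair compared, at 1 dose. They differ in the ring, benzene or pyridine, and in the amino group that DCA carries, and share the carboxyl group and both chlorine atoms. At 48 h the count of called probe sets depended on how the arrays were weighed. It was 0 in limma over all 24 arrays, 43 (0.315%) without INA replicate 2 and 1 (0.00733%) without INA replicate 3. With weights estimated for each array, which gave INA replicate 1 a weight of 0.322 and INA replicate 3 one of 3.68, it was 3268 (23.9%), of which 1572 were higher and 1696 lower with DCA. Under those weights 42 of the 66 plastid genes were called higher and 0 lower, against 11.5% of all tested called higher, and 22 of the 28 probe sets from 6 d were called lower, against 12.4%. These counts were 0 plastid genes and 8 of the 28 in the 6 arrays alone, and 1 plastid gene and 0 of the 28 without INA replicate 2. With the replicate number as a block, which the 48 h arrays do not bear out as a pairing, they were 17 and 6. A p that misses the threshold here does not show that the compounds act alike, and the intervals above give the sizes that remain possible.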

How the data were processed

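Affymetrix ATH1 arrays measured RNA from whole aerial tissue of 24 samples in 8 groups of 3, grouped by the labels. The deposited values are linear signal intensities per probe set made by the authors with GCOS, per the submitters' processing notes. Version and settings are not given in the sources used here. The values themselves show a mean of 500.1 on every array after trimming 2% at either end. For array data, the number of arrays limits the precision.

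Signals under 1 were set to 1, log2 was taken, and the 13648 of 22746 non-control probe sets with a mean at or above the 40th percentile (signal 74.2) were tested. In limma 3.58.1 (R 4.3.3), a model of all 8 group means with an intensity trend gave moderated tests with 16 residual degrees of freedom, and p was adjusted by Benjamini-Hochberg. Differences are DCA minus INA, ± SE, and fold values are on the floored log2 scale. The test was run on simulated data with independent normal noise and, for each probe set, the same spread in all groups. Those data held no replicate that stood apart and no pairing, so they do not show how the test handles either. Gene names come from the platform annotation, where 13513 probe sets had 1 gene, 503 several and 8730 no entry. Of the single genes 13436 matched RefSeq.

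Deviations of same-numbered DCA and INA arrays correlated at 0.75, 0.57 and 0.46 at 6 d, so the numbers pair those arrays. At 48 h they correlated at -0.13, 0.15 and 0.15 and do not.

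Named genes were those with an unadjusted p under 0.05, no overlap and a higher mean above the median signal, the 10 largest each way. To these came up to 4 members of each list, 4 fixed genes, and up to 5 genes each way that were called with 1 array left out or in the 6 arrays alone. Genes called at 6 d were added with their values known. The comparison, the lists and the tests were chosen with earlier results of these data known. Alternatives left out arrays, used the 6 arrays alone, a replicate block, array weights, quantile normalization, another floor or filter, or no trend. Array weights were estimated gene by gene, because the REML method did not converge.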

Additional observations from a re-analysis of the deposited data

How the results depend on the processing

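At 48 h the count of 0 called probe sets was 1 with all replicate 1 arrays removed, 11 in the 6 arrays alone, 260 with the replicate block and 3268 with array weights. Leaving out 1 array gave 0 to 43. Quantile normalization, another floor or filter and no trend gave 0. The replicate numbers do not pair the 48 h arrays: their correlations were not all above 0.1, and DCA replicate 1 correlated best with INA replicate 2. At 6 d the count of 29 was 130 with replicate 1 arrays removed, 100 with the block, 598 with array weights, 47 with signals under 32 set to 32 and 18 with the 60th percentile filter, and 4 to 110 with 1 array left out. The difference between the times gave 79 calls with array weights and 0 otherwise. Causes were not tested.

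Of 86 named genes, these changed sign, all from small or unsteady differences. Leaving out 1 array gave -0.53 to 0.48 for GRX480, -0.35 to 0.11 for SAG101, -0.38 to 0.19 for CRT1b, -0.14 to 0.14 for PDIL5-1, -0.0052 to 0.25 for AT2G04400, -0.37 to 1.24 for PDF1.2, -0.12 to 0.63 for GSTU18, -0.027 to 0.30 for LHCB4.1, -0.26 to 0.096 for LHCB4.2, -0.10 to 0.23 for GI, -0.14 to 0.19 for RCA and -0.27 to 0.29 for nad4. With replicate 1 arrays removed GRX480 was -0.50, PDF1.2 -0.42, GSTU18 -0.12 and LHCB4.2 0.14. With array weights GRX480 was -0.26, SAG101 0.033, PDIL5-1 0.16, AT2G04400 -0.049, LHCB4.1 -0.048, RCA -0.19 and nad4 0.23. Quantile normalization gave 0.011 for CRT1b, 0.023 for PDIL5-1, -0.10 for RCA and 0.024 for nad4.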
